A study of Homo sapiens with 14 samples.

Results

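Circular RNAs (circRNAs) whose ends both lay inside a vesicle and membrane trafficking gene were followed through 6 fractions of HepG2, an established human hepatoma cell line. A trafficking gene was a protein-coding gene named VAPA, VAPB, EPS15, SH3GLB1 or FCHO2, or with a symbol that starts with RAB, TBC1D, VPS, SNX, EXOC, TRAPPC, DENND, STX, VAMP, or COG and a digit. This rule took 331 of the 11227 circRNAs listed, from 110 of the 287 protein-coding genes whose symbols it fits. It goes by symbol alone and so also holds genes with other work, such as VPS72, a subunit of a chromatin remodelling complex, and RAB5IF, which is not itself a GTPase.

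The fractions were nucleus, cytoplasm, ribosome, cytosol, exosomes and whole cells, each with 2 libraries of total RNA, and no group carried a treatment or a genetic change. Ribosomal RNA had been removed before library preparation from all of these except the exosomal RNA, per the labels' protocols. Whether the libraries of a fraction came from separate cultures is not stated in the labels, so p-values measure a spread between libraries that may be technical. The 3 comparisons set nucleus beside cytoplasm, ribosome beside cytosol, and exosome beside whole cell, and ask where in the cell, and in what it releases, each circRNA is found.

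Membrane proteins move between compartments in vesicles that bud with the help of coats and curved membranes, travel, tether and then fuse. Rab GTPases mark each compartment: DENN-domain proteins such as the DENND family load them with GTP, and TBC1D proteins turn them off. Sorting nexins (SNX) and VPS proteins sort cargo in endosomes, the exocyst (EXOC), TRAPP and COG complexes tether vesicles, and syntaxins (STX) and VAMP proteins are the SNAREs that drive fusion. A circRNA forms when the end of an exon is joined back to the start of an earlier one, and reads across that back-splice junction were what the tables counted. No junction sequence is printed, because coordinates alone do not give the spliced sequence of a circle and no genome was used here.

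The libraries held from 2301 circRNA reads in an exosomal library to 72415 in a cytoplasmic one. Trafficking circRNAs took 170 and 171 of those reads in nucleus, 1653 and 1379 in cytoplasm, 644 and 465 in ribosome, 1672 and 1619 in cytosol, 68 and 163 in exosomes, and 1128 and 1004 in cells. Nuclear and exosomal values therefore rest on few reads. Levels are given in RPTM, reads per 10000000 reads of a library, and the RPTM of 1 read implies library totals of 65.6 to 104 M reads. A fraction's table listed a circRNA only where both of its libraries had a read, so an unlisted circRNA is not a measured zero.

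Trafficking circRNAs were found in every fraction, at about the same small part of each table. The nucleus table listed 33 of them among 1302 entries, cytoplasm 203 of 6968, ribosome 84 of 2899, cytosol 168 of 5105, exosomes 14 of 442 and cells 168 of 5333. They were 2.53% of the entries in nucleus, 2.91% in cytoplasm, 2.90% in ribosome, 3.29% in cytosol, 3.17% in exosomes and 3.15% in cells. Of the 33 nuclear entries 27, or 81.8%, were also listed in cytoplasm, against 75.1% of all nuclear entries. Of the 84 ribosomal ones 53, or 63.1%, were also listed in cytosol, against 61.5% of all. Of the 14 exosomal ones 10, or 71.4%, were also listed in cells, against 83.5% of all. Tables of 1 fraction held 160 of the 331, or 48.3%, against 52.6% of all circRNAs, and 4 were listed in all 6. Those 4 were circRNAs of VAPA, VAPB, FCHO2 and SNX5. Both callers had found 161 of the 331 in the same table.

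By share of circRNA reads the trafficking genes differed little between most fractions. They held 2.20% and 2.36% in nucleus, 2.28% and 2.32% in cytoplasm, 2.35% and 2.37% in ribosome, 2.75% and 2.72% in cytosol, 2.95% and 7.08% in exosomes, and 2.13% and 2.41% in cells. The exosomal libraries stood apart from each other, with 95% Wilson intervals of 2.33% to 3.72% and 6.11% to 8.21%, which cover counting error only. A single RAB37 entry carried that gap: without it the exosomal libraries held 2.02% and 2.24%. The cytosolic libraries were above all libraries but the exosomal ones, and a single VAPA circRNA carried part of that excess. Without it the means were 2.27% in cytosol, 2.27% in ribosome, 2.12% in cytoplasm, and 2.05% in nucleus and in cells. The smallest two-sided p of an exact permutation test on 2 libraries per fraction is 0.333, so these shares are described and not tested.

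**Figure D1:**
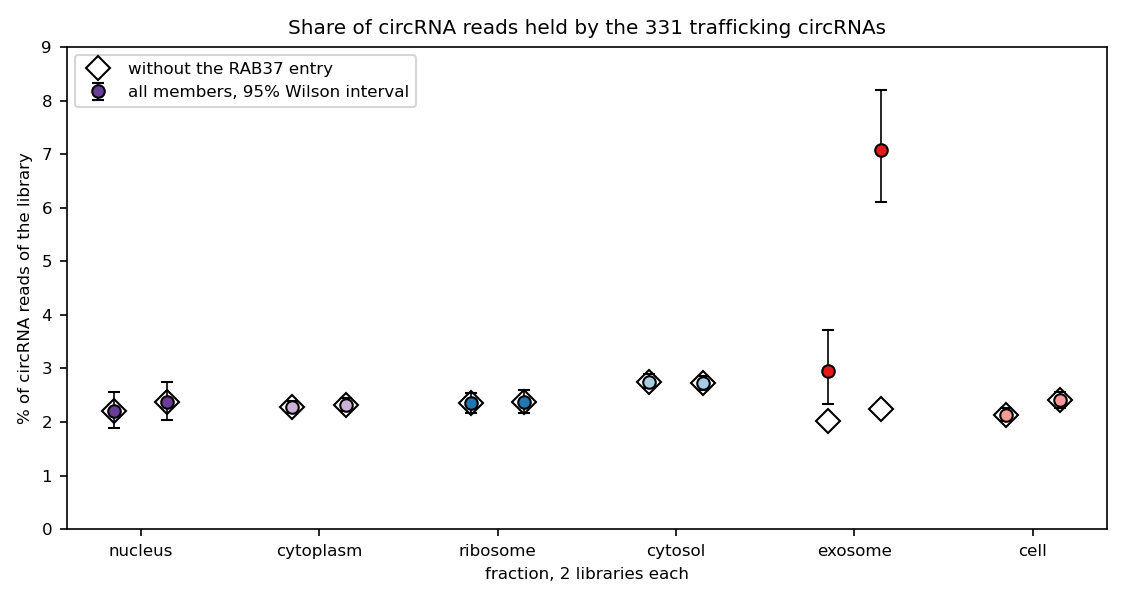
Percent of the circRNA reads of each library (y axis) held by the 331 trafficking circRNAs in the 6 fractions (x axis), with the 95% Wilson interval (filled points) and without the RAB37 entry (open diamonds). The second exosomal library stands at 7.08% with RAB37 and at 2.24% without it, and the other fractions lie between 2.13% and 2.75%.

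Several hosts gave families of overlapping circles. The genomic span between the ends of a trafficking circRNA had a median of 8023 bases, against 6525 over all circRNAs, and ran from 186 bases in STXBP6 to 121319 bases in DENND1A, the exchange factor of RAB35. Hosts of a single circRNA numbered 39 of the 110. A start or an end was shared with another circRNA by 209 of the 331, or 63.1%, against 59.6% of all circRNAs. DENND4A, an exchange factor of RAB10, had the most, with 18 circRNAs from 9 starts and 6 ends, and it was listed in cytoplasm with 7, ribosome with 3, cytosol with 13 and cells with 9, and in neither nucleus nor exosomes. The most abundant of them, chromosome 15, 65752379 to 65761438, had 11 and 5 reads in cytoplasm, 12 and 10 in cytosol, and 6 and 5 in cells. SNX5, a subunit of an endosomal coat, had 10 circRNAs, TBC1D31 had 9, and SNX25, SNX13 and TBC1D4 had 8 each.

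**Figure D2:**
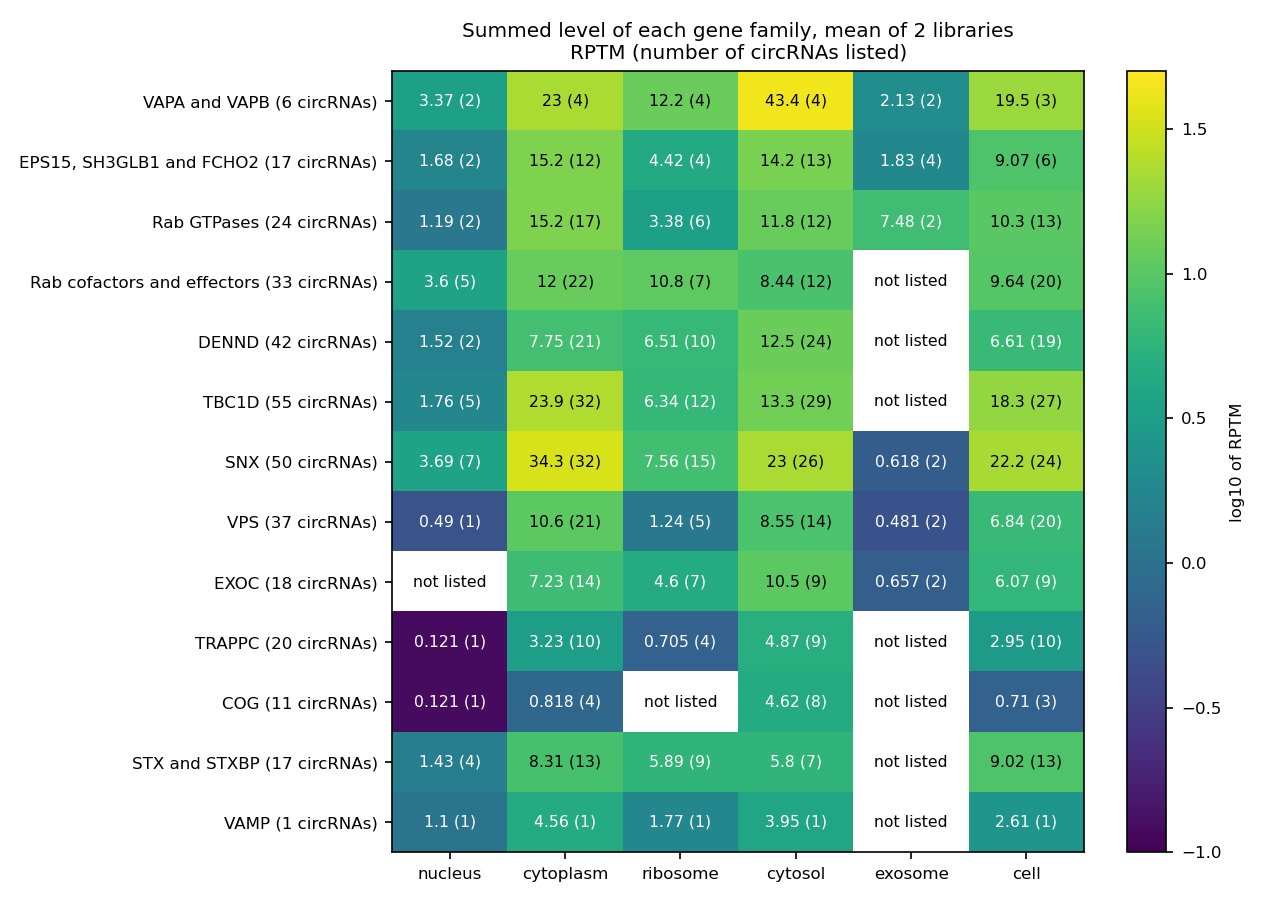
Summed level of each gene family in RPTM, as the mean of 2 libraries (colour on a log10 scale, value printed), for 6 fractions (columns) and the families ordered by role (rows), with the number of circRNAs listed in parentheses. VAPA and VAPB have 12.2 RPTM in ribosome and 43.4 in cytosol, and the COG family has no listed circRNA in ribosome or exosomes and 4.62 RPTM in cytosol. In all, 2899 circRNAs are listed in ribosome, 442 in exosomes and 5105 in cytosol.

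VAPA and VAPB, the related anchors that hold the endoplasmic reticulum to other membranes, gave the most abundant circRNAs of the set. The VAPA circRNA at chromosome 18, 9931810 to 9937066, of 5257 bases, had 17 and 18 reads in nucleus, 129 and 117 in cytoplasm, 28 and 16 in ribosome, 327 and 250 in cytosol, 10 and 9 in exosomes, and 111 and 99 in cells. By level it ranked 181 of all circRNAs in ribosome and 11 in cytosol. The VAPB circRNA at chromosome 20, 58438945 to 58441083, of 2139 bases, had 15 and 8 reads in nucleus, 87 and 58 in cytoplasm, 71 and 75 in ribosome, 127 and 96 in cytosol, 7 and 9 in exosomes, and 59 and 50 in cells. VAPA reads were above VAPB reads in nucleus, cytoplasm, cytosol and cells, and below them in both ribosomal libraries. The ratio of VAPA to VAPB reads was 0.394 and 0.213 in ribosome and 2.57 and 2.60 in cytosol, and it lay between 1.0 and 2.25 in the other 8 libraries.

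Other abundant circRNAs came from further steps of the route. The 12 with the highest mean level over the fractions were, besides VAPA and VAPB, circRNAs of FCHO2, an early organiser of clathrin-coated pits, RAB3IP, the exchange factor of RAB8, SNX25, the SNARE VAMP3, the exocyst subunit EXOC6B, SNX5, the Golgi GTPase RAB6A, the autophagy regulator TBC1D14, the endosomal and Golgi syntaxin STX6, and DENND1A. The FCHO2 circRNA (chromosome 5, 73074742 to 73077493) had 13 and 10 reads in nucleus, 86 and 77 in cytoplasm, 40 and 22 in ribosome, 30 and 77 in cytosol, 3 and 8 in exosomes, and 50 and 45 in cells, so its cytosolic libraries differed more from each other than from those of cells. The SNX25 circRNA (chromosome 4, 185247294 to 185267155) had 5 and 5 reads in nucleus, 55 and 50 in cytoplasm, 25 and 12 in ribosome, 63 and 40 in cytosol, and 26 and 30 in cells. Of the 12, the exosome table listed those of VAPA, VAPB, FCHO2, EXOC6B and SNX5, and the nucleus table listed all but those of EXOC6B and RAB6A.

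**Figure D3:**
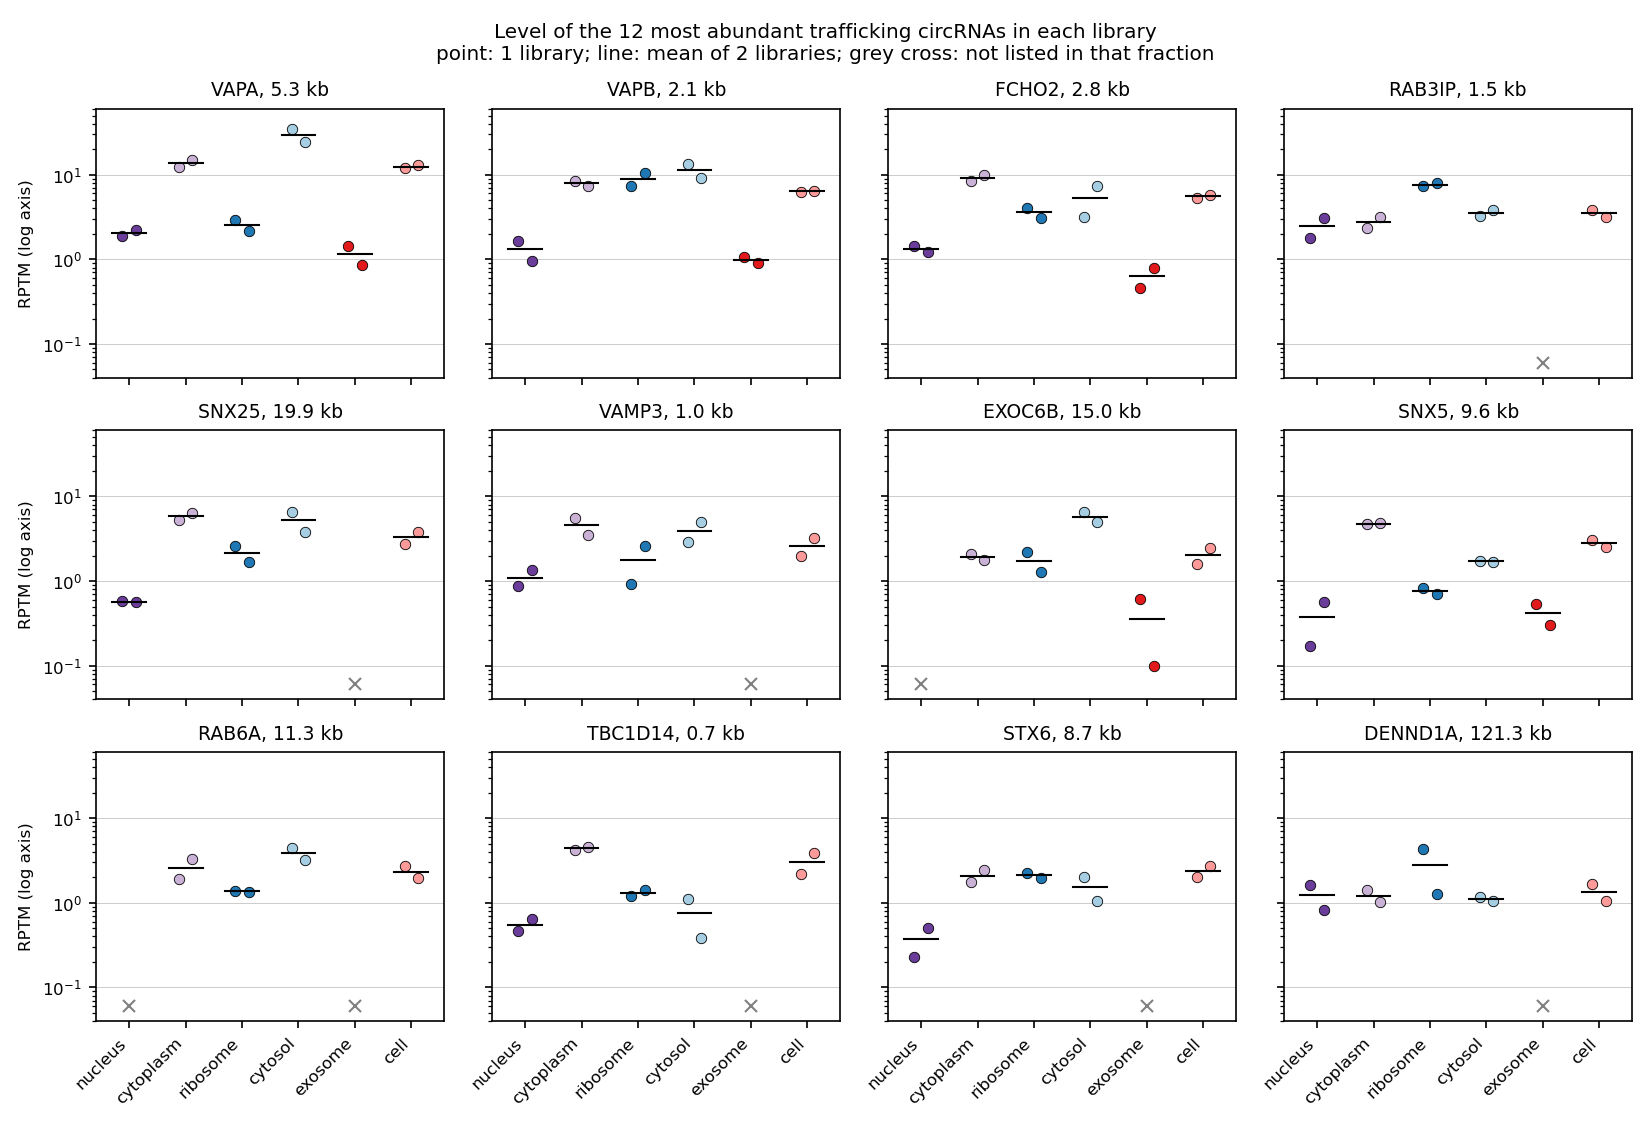
Level in RPTM on a log axis (y) of the 12 trafficking circRNAs with the highest mean level, in each of 12 libraries grouped by fraction (x). Points are libraries, lines are means of 2 libraries, and grey crosses mark fractions whose table does not list the circRNA. VAPA is highest in cytosol at 29.3 RPTM, and RAB3IP is highest in ribosome at 7.60 RPTM.

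Counts were compared with edgeR's quasi-likelihood test with Benjamini-Hochberg adjustment (threshold 0.05) on the whole table, in 1 fit over the 12 libraries. Tested were the circRNAs that both callers had found in a table and that passed a filter on low counts: 950 in all, and 41 trafficking circRNAs from 26 hosts. Of the other 290, 170 had no entry by both callers in a table and 120 had too few reads. The 41 held 62.8% of the reads of the 331. The filter passes a circRNA on 2 libraries alone, and 20 of the 41 were over its cutoff in 1 fraction only, 7 of them in cytosol and 6 in exosomes, so a count of calls among the 41 says nothing about all 331. Fold changes are on the scale of the trimmed mean of M values (TMM): a value above 0 means a larger part of the circRNA in a library, which need not be a larger part of its RNA. Log2 fold changes are given ± SE, a standard error taken approximately from the test. A call is described as kept where it passed in the same direction in each of 4 fits, which paired 2 scales (TMM or total circRNA reads) with 2 treatments of an unlisted circRNA (0 or 1 read). Where 1 of the 2 fractions did not list a circRNA, its reads and adjusted p stand without a fold change.

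Nucleus against cytoplasm. The share of trafficking circRNAs called relatively richer in the nucleus was near that of all circRNAs tested. These calls came from regulators of Rab GTPases, a sorting nexin and the autophagosomal syntaxin STX17, whose call was not kept. The test called 19 of the 41, against 48.2% of all circRNAs tested. Of these, 6 were higher in nucleus, against 14.9%, and 13 were lower, against 33.3%. Both counts were near the background. Kept calls were 5 higher and 0 lower, against 12% and 3.58%, and each of the 13 lower ones was unlisted in nucleus. Among the 19 listed in both tables, 5 were higher and 0 lower, against 23.9% and 7.39%. DESeq2 gave 3 higher and 0 lower, with no adjusted p for 24 of the 41, and 22 of the 41 had an unadjusted p under 0.05 in either direction. With implied library totals as the scale 1 was higher and 31 lower, and without nucleus replicate 1 or 2 the test called 5 and 10. Their median log2 fold change was 0.18, against 0.37 over the 528 circRNAs listed in both.

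Of the circRNAs called higher in nucleus, that of RAB3IP had the smallest adjusted p. Its circRNA at chromosome 12, 69800209 to 69801721, had 16 and 25 reads in nucleus, against 25 and 25 in cytoplasm, while the nuclear libraries held 7727 and 7235 circRNA reads in all and the cytoplasmic ones 72415 and 59323. The log2 fold change was 2.33 ± 0.38, with an adjusted p of 1.72e-05, and the groups did not overlap on that scale. In RPTM, per library read, nucleus had 2.45 ± 0.94 and cytoplasm 2.78 ± 0.58 (SD, n = 2), and with implied library totals as the scale the fold change was -0.16. That scale moves the median of all circRNAs tested by -2.42, so the nuclear excess is one relative to other circRNAs.

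The same held for the other nuclear calls among circRNAs listed in both tables. SNX11, a phosphoinositide-binding sorting nexin, had 13 and 10 reads in nucleus, against 9 and 13 in cytoplasm (2.65 ± 0.48, adjusted p = 9.51e-05, chromosome 17, 48112031 to 48113401). DENND1A had 14 and 7 reads in nucleus, against 15 and 8 in cytoplasm (2.47 ± 0.55, adjusted p = 0.00115, chromosome 9, 123757703 to 123879021), and without nucleus replicate 1 its adjusted p was 0.161. TBC1D22A, a TBC-domain protein, had 4 and 4 reads in nucleus, against 5 and 4 in cytoplasm (2.40 ± 0.73, adjusted p = 0.00936), and leaving out any 1 of the 4 libraries ended the call, with adjusted p between 0.0679 and 0.152. STX17 had 3 and 1 reads in nucleus and 3 and 1 in cytoplasm (2.50 ± 0.91, adjusted p = 0.0355), a call that was not kept and did not pass without any 1 of the 4 libraries (adjusted p = 0.0794 to 0.621). SNX11 and TBC1D22A had passed the filter on low counts through the nuclear libraries alone, the group in which they were called higher. STX17 had passed it only through nucleus replicate 1 and ribosome replicate 2. With implied library totals as the scale none of these 5 passed.

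DENND5B, a DENN-domain protein, gave the only nuclear call on a circRNA that cytoplasm did not list. The circRNA at chromosome 12, 31495810 to 31499671, had 2 and 3 reads in nucleus and was unlisted in cytoplasm (adjusted p = 0.000315), and the call was kept. This circRNA had passed the filter on low counts only through nucleus replicate 2 and ribosome replicate 2, from fractions in which it was called higher. Of the lower calls, those on most cytoplasmic reads were TBC1D14 at chromosome 4, 6923373 to 6967424, with 24 and 26 reads in cytoplasm, and RAB6A at chromosome 11, 73707420 to 73718718, with 20 and 26. All 3 RAB6A circRNAs tested were called lower and were unlisted in nucleus. VAPA and VAPB, with 17 and 18 against 129 and 117 reads and 15 and 8 against 87 and 58, had fold changes of -0.19 ± 0.31 and -0.03 ± 0.38 and did not pass (adjusted p = 0.641 and 0.987). A short RAB10 entry by the caller headed Ciri alone, with 7 and 4 reads, was listed in nucleus only and not tested.

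Ribosome against cytosol. Trafficking circRNAs were called in both directions here, at shares near those of all circRNAs tested. Some circRNAs of VAPA, FCHO2, sorting nexins and VPS13C were called lower in ribosome, while some of RAB3IP, DENND1A, TBC1D14 and syntaxins were called higher. The test called 21 of the 41, against 52.7% of all circRNAs tested. Of these, 9 were higher, against 26.6%, and 12 were lower, against 26.1%. Of the lower ones, 6 had passed the filter on low counts through the cytosolic libraries alone: the second VAPA circRNA, the 2 called FCHO2 circRNAs, SNX6, and the lower ones of RAB6A and DENND5B. Kept calls were 7 higher and 9 lower, against 22.7% and 20.6%. With RLE factors 8 were higher and 16 lower, and with implied library totals, which move the median of all circRNAs tested by -0.71, 6 and 21. Among the 27 listed in both tables, 5 were higher and 4 lower, against 23.9% and 20.3%, with a median log2 fold change of 0.03, against 0.17 over the 725 circRNAs listed in both.

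The VAPA circRNA at 9931810 to 9937066 was the most changed of those listed in both tables and had 28 and 16 reads in ribosome, against 327 and 250 in cytosol. Its level was 2.54 ± 0.50 RPTM in ribosome and 29.3 ± 7.5 RPTM in cytosol (SD, n = 2). Both ribosomal libraries lay far below both cytosolic ones, with a log2 fold change of -2.58 ± 0.28 and an adjusted p of 1.85e-08. The call stood in every alternative tried. A second VAPA circRNA with the same start, of 18759 bases, had 5 and 4 reads in ribosome, against 27 and 25 in cytosol (-1.38 ± 0.49, adjusted p = 0.0185). VAPB had 71 and 75 reads in ribosome, against 127 and 96 in cytosol, with a fold change of 0.57 ± 0.27 that did not pass (adjusted p = 0.0787).

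Of the 6 circRNAs of EPS15, SH3GLB1 and FCHO2 tested, 0 were called higher, against 26.6% of all circRNAs tested. Lower calls were 2, against 26.1%, and both were of FCHO2. The one at 73058433 to 73077493 had 5 and 1 reads in ribosome, against 19 and 19 in cytosol (-1.52 ± 0.58, adjusted p = 0.028). The circRNA at 72989427 to 72990864 was unlisted in ribosome and had 20 and 22 reads in cytosol (adjusted p = 3.36e-05). The abundant one, which shares its end with the first, had 40 and 22 reads in ribosome, against 30 and 77 in cytosol, and did not pass (0.28 ± 0.38, adjusted p = 0.556). SH3GLB1, endophilin B1, which curves membranes, had 1 and 1 reads in ribosome, against 6 and 11 in cytosol, and did not pass (-1.87 ± 0.81, adjusted p = 0.0581). EPS15, a clathrin pit adaptor, had 5 and 2 reads against 9 and 6 (0.03 ± 0.66).

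Among regulators of Rab GTPases, 2 of 3 DENND circRNAs tested were higher and 1 lower, both of the Rab cofactor circRNAs (RAB3IP and RABGGTA) were higher, and 1 of 5 TBC1D circRNAs was higher and 4 did not pass, against 26.6% higher among all circRNAs tested. RAB3IP had 71 and 56 reads in ribosome, against 31 and 40 in cytosol, or 7.60 ± 0.44 and 3.51 ± 0.40 RPTM (SD, n = 2). Its fold change was 1.96 ± 0.31 with an adjusted p of 5.17e-06, and it passed in all alternatives tried. RAB3IP was thus called higher in nucleus and in ribosome. DENND1A had 42 and 9 reads in ribosome, against 11 and 11 in cytosol (2.26 ± 0.46, adjusted p = 0.000159). Ribosome replicate 1 carried that call, since without it the fold change was 0.65 with an adjusted p of 0.454. TBC1D14 at 6923373 to 6924111 had 12 and 10 reads in ribosome, against 11 and 4 in cytosol (1.68 ± 0.52, adjusted p = 0.00773), and the call was lost without ribosome replicate 1 or 2 or cytosol replicate 2 (adjusted p = 0.108, 0.242 and 0.198). RABGGTA, a subunit of the enzyme that attaches lipid to Rab proteins, had 18 and 5 reads against 14 and 8 (1.17 ± 0.49, adjusted p = 0.0461). It was not kept, without ribosome replicate 1 its fold change turned to -0.19, and without ribosome replicate 2 or either cytosolic library adjusted p was 0.0631 to 0.387. RAB7A, the late endosomal GTPase, had a circRNA with 3 and 2 reads in ribosome that was unlisted in cytosol (adjusted p = 0.00231), and the call was not kept.

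Of the SNAREs, STX6 and STX17 were called and VAMP3 was not. STX6 at chromosome 1, 180984677 to 180993425, had 22 and 14 reads in ribosome, against 19 and 11 in cytosol (1.39 ± 0.42, adjusted p = 0.006). Without ribosome replicate 1 or 2 or cytosol replicate 2 it did not pass (adjusted p = 0.227, 0.193 and 0.163). STX17 at chromosome 9, 99959917 to 99960155, had 4 and 8 reads in ribosome and was unlisted in cytosol (adjusted p = 1.5e-05). This circRNA had passed the filter on low counts only through nucleus replicate 1 and ribosome replicate 2. VAMP3, the only VAMP gene with a circRNA, had 9 and 19 reads in ribosome, against 27 and 53 in cytosol (-0.37 ± 0.46, adjusted p = 0.535).

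Of 8 sorting nexin circRNAs tested 0 were higher, 4 were lower in ribosome and 4 did not pass, against 26.6% higher and 26.1% lower among all circRNAs tested. The 4 lower ones were unlisted in ribosome. SNX6, a partner of SNX5 in the endosomal coat, had 29 and 42 reads in cytosol (adjusted p = 5.34e-06, chromosome 14, 34567686 to 34568013). SNX13 had 13 and 14 (adjusted p = 0.000296) and SNX11 had 5 and 8 (adjusted p = 0.00804, and 0.0513 without ribosome replicate 1), so SNX11 was called higher in nucleus and lower in ribosome. The fourth, SNX5 at 17955365 to 17957037, had 2 and 17 reads in cytosol (adjusted p = 0.0104, and 0.168 without cytosol replicate 2). VPS13C, a lipid-transfer protein, was unlisted in ribosome and had 27 and 27 reads in cytosol (adjusted p = 1.55e-05, chromosome 15, 62007308 to 62013992). Of the tethers, EXOC6 at chromosome 10, 92893349 to 92909631, was called lower and not kept, unlisted in ribosome and with 6 and 4 reads in cytosol (adjusted p = 0.0144, and 0.0758 without ribosome replicate 1). No COG circRNA was in the tested set. COG genes had 0 circRNAs listed in ribosome, against 8 in cytosol with a summed level of 4.62 ± 0.28 RPTM (SD, n = 2). COG3 at chromosome 13, 45516143 to 45525051, led them with 13 and 11 reads in cytosol and was listed in no other table. VPS genes had 5 circRNAs at 1.24 ± 0.15 RPTM in ribosome and 14 at 8.55 ± 0.27 RPTM in cytosol. Of all circRNAs listed in cytosol, only 34.9% were also listed in ribosome. The ribosomal libraries held 27431 and 19649 circRNA reads, against 60701 and 59472 in cytosol. The part of this in the COG and VPS listings was not tested.

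**Figure D4:**
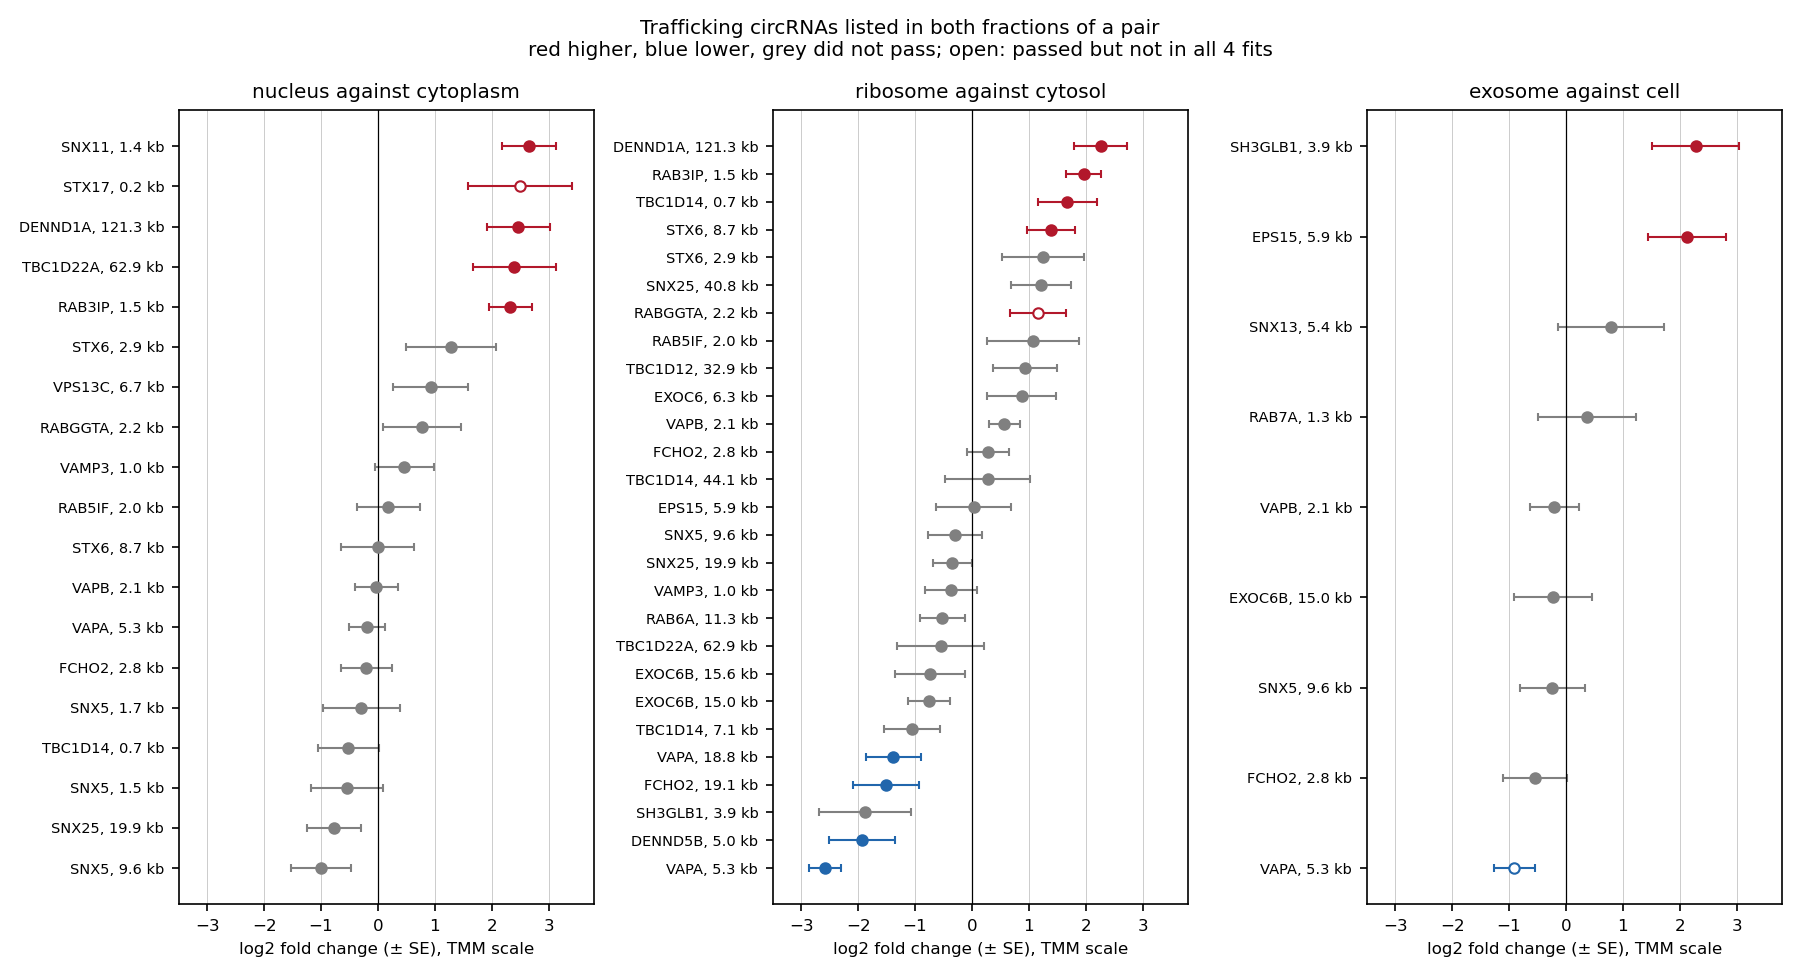
Log2 fold change ± SE on the TMM scale (x axis) of the trafficking circRNAs listed in both tables of a pair (rows, named by host gene and genomic span), for the 3 comparisons. Red passed as higher, blue as lower, grey did not pass, and open points passed but were not kept in the 4 fits. VAPA stands at -2.58 in ribosome against cytosol and RAB3IP at 1.96.

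RAB6A and DENND5B each had circRNAs that moved in opposite directions. The RAB6A circRNAs share a start at 73707420, which for this minus-strand gene is the downstream end. The one that ends at 73718890 had 7 and 6 reads in ribosome and was unlisted in cytosol (adjusted p = 2.74e-05). The one that ends at 73720899 was unlisted in ribosome and had 31 and 23 reads in cytosol (adjusted p = 8.25e-06). The most abundant, which ends at 73718718, had 14 and 10 reads in ribosome, against 42 and 34 in cytosol, and did not pass (-0.52 ± 0.40, adjusted p = 0.274). All 3 were listed in cytoplasm, at 20 and 26, 17 and 19, and 20 and 12 reads in order of span, and in cells. Of the listed RAB6A circRNA reads, the form that ends at 73720899 held 39.2% and 38.3% in the cytosolic libraries, and 35.1% and 21.1% in the cytoplasmic ones. These shares are not over the same forms and cannot be compared between the fractions. The form that ends at 73718890 was listed in cytoplasm and not in cytosol, and a further form in cytosol and not in cytoplasm. Its share in ribosome was not measured, since it was unlisted there. In DENND5B the circRNA at 31495810 to 31499671 had 5 and 10 reads in ribosome and was unlisted in cytosol (adjusted p = 4.4e-06). This circRNA had passed the filter on low counts only through nucleus replicate 2 and ribosome replicate 2. Without ribosome replicate 2 it was not tested. The DENND5B circRNA at 31442775 to 31447769 had 3 and 2 reads in ribosome, against 24 and 19 in cytosol (-1.93 ± 0.57, adjusted p = 0.006), and neither was listed in cytoplasm.

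Each circRNA was then compared with the other tested circRNAs of its own host, a test added after these values were seen. It covered 25 trafficking circRNAs in 10 hosts, and 7 passed between ribosome and cytosol, against 21.4% of the 401 circRNAs covered. They were the 2 RAB6A and the 2 DENND5B circRNAs above, FCHO2 at 72989427 to 72990864, TBC1D14 at 6923373 to 6924111 and EXOC6 at 92893349 to 92909631. Adjusted p was 1.51e-06 and 4.31e-05 for RAB6A, 1.72e-05 and 0.0141 for DENND5B, 0.000217 for FCHO2, 0.0186 for TBC1D14 and 0.0300 for EXOC6. With unlisted circRNAs at 1 read the EXOC6 call did not pass (0.380) and the other 6 did. Leaving out libraries one at a time, the highest adjusted p was 0.138 for TBC1D14 and 0.422 for EXOC6, and the other 5 passed in each such fit that tested them, which was 4 for RAB6A, 3 for FCHO2 and 2 for DENND5B. The pair of VAPA circRNAs did not pass, at 0.230 and 0.818. Between nucleus and cytoplasm 0 of the 25 passed, against 7.23%, and between exosome and cell 2 passed, against 2.0%. Those 2 were EXOC6 at 92893349 to 92909631 and FCHO2 at 73078180 to 73082825, which cells did not list. They had 2 and 3, and 3 and 2, exosomal reads and had passed the filter on low counts through exosomes alone. With unlisted circRNAs at 1 read neither passed this within-host test (adjusted p = 0.647 and 0.0989).

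**Figure D5:**
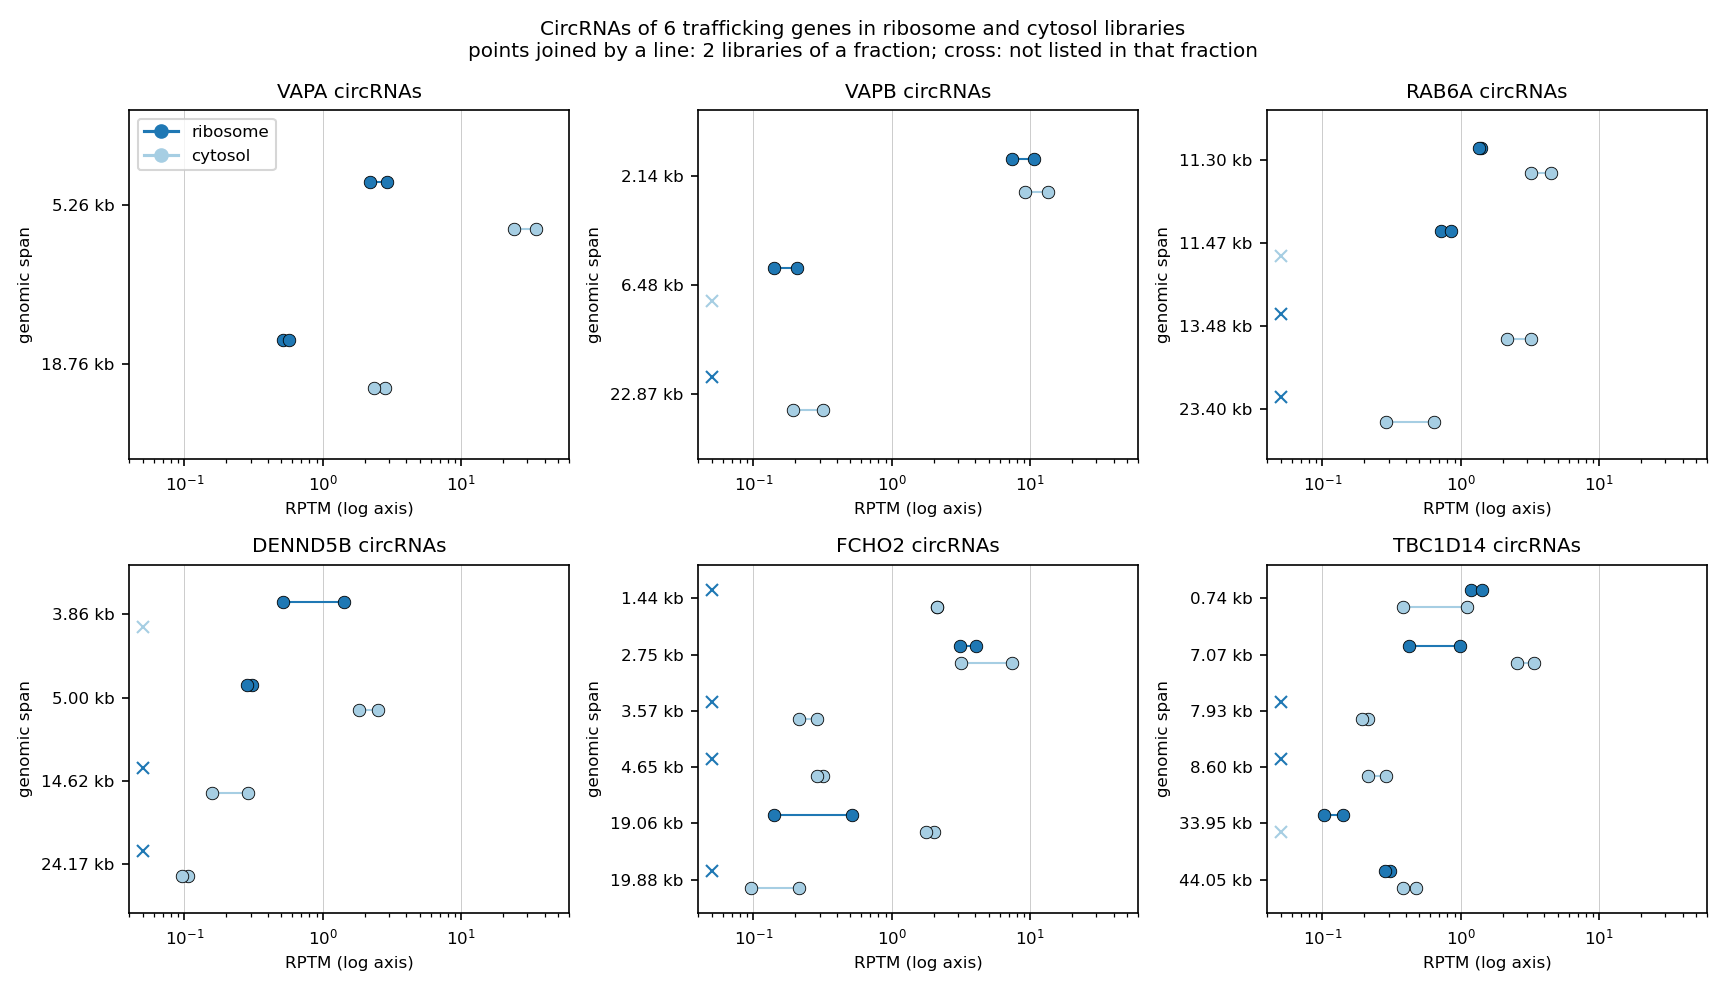
Level in RPTM on a log axis (x) of each circRNA of VAPA, VAPB, RAB6A, DENND5B, FCHO2 and TBC1D14 (rows by genomic span) in the 2 ribosomal (dark) and 2 cytosolic (light) libraries, with crosses where a fraction's table does not list it. The RAB6A form of 11471 bases is listed in ribosome and not in cytosol, and the form of 13480 bases is not listed in ribosome but is in cytosol.

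Exosome against cell. Exosomes listed 14 trafficking circRNAs, and most of the abundant ones of cells were not among them. The test called 24 of the 41, against 46.0% of all circRNAs tested. Of these, 4 were higher in exosomes, against 4.0%, and 20 were lower, against 42.0%. Of the lower calls 19 were of circRNAs that the exosome table did not list, and of the 20 none was kept. Kept calls were the 4 higher ones, against 2.21%, and 0 lower, against 0.526%. Of the 9 listed in both tables, 2 were higher and 1 lower, against 5.78% and 8.51%. Scaled to total circRNA reads 4 were higher and 2 lower, with RLE factors 4 and 11, and with implied library totals, which move the median of all circRNAs tested by -0.48, 2 and 36. Without exosome replicate 1 or 2 the test called 1 and 7. Exosomal RNA differed from the rest in that ribosomal RNA had not been removed, and the part of this in the levels was not tested.

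Of the 14 circRNAs that exosomes listed, 5 were among the 12 with the highest mean level. VAPB had 7 and 9 reads in exosomes, against 59 and 50 in cells (-0.20 ± 0.43, adjusted p = 0.715). VAPA had 10 and 9 reads, against 111 and 99 (-0.91 ± 0.36, adjusted p = 0.0385), a call that was not kept and turned to 0.25 with total circRNA reads as the scale. It did not pass without exosome replicate 1 or cell replicate 2 (0.106 and 0.0832). FCHO2 at 73074742 to 73077493 had 3 and 8 reads, against 50 and 45 (-0.54 ± 0.56, adjusted p = 0.424). EXOC6B had 4 and 1 reads in exosomes, against 15 and 19 in cells, and SNX5 at 17947486 to 17957037 had 4 and 3, against 29 and 20. Neither passed.

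Higher calls in exosomes rested on very few reads, and the 4 circRNAs had passed the filter on low counts through the exosomal libraries alone, the group in which they were called higher. EPS15 at chromosome 1, 51402435 to 51408332, had 2 and 7 reads in exosomes, against 7 and 5 in cells (2.13 ± 0.68, adjusted p = 0.0172). SH3GLB1 at chromosome 1, 86715724 to 86719635, had 3 and 3 reads, against 3 and 4 (2.28 ± 0.77, adjusted p = 0.0236). FCHO2 at 73078180 to 73082825 had 3 and 2 reads in exosomes, and EXOC6 at chromosome 10, 92893349 to 92909631, had 2 and 3, and cells listed neither. The 4 calls were kept, but EPS15 did not pass without either exosomal library (0.0575 and 0.897), SH3GLB1 did not pass without either exosomal library or cell replicate 1 (0.192, 0.212 and 0.113), and FCHO2 did not pass without exosome replicate 1 (0.0521). EXOC6 was below the filter on low counts without either exosomal library. With implied library totals EPS15 and SH3GLB1 stood at -0.38 and -0.17.

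RAB37, a secretory Rab GTPase, gave the trafficking entry with most exosomal reads. The entry at chromosome 17, 74732509 to 74732835, of 327 bases, had 22 and 114 reads in exosomes, which placed it at rank 2 of the 442 exosomal entries, and no other table listed it. Only the caller headed Ciri had found it, so it was not in the tested set. The other trafficking reads in exosomes came to 46 and 49.

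The other trafficking hosts, a list of 120 genes for coats, adaptors, ARF and ESCRT proteins, Golgi tethers and other SNAREs, had 281 circRNAs from 73 genes, of which 21 were tested. Between nucleus and cytoplasm 2 of the 21 were higher and 11 lower, against 14.9% and 33.3% of all circRNAs tested. Between ribosome and cytosol 4 were higher and 6 lower, against 26.6% and 26.1%. Between exosome and cell 0 were higher and 11 lower, against 4.0% and 42.0%. Kept calls in these 3 comparisons were 2 higher and 0 lower, 3 and 4, and 0 and 0. Of the 21, those listed in both tables had median log2 fold changes of -0.11, -0.09 and 0.03.

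Across the comparisons 36 of the 41 trafficking circRNAs were called at least once, or 87.8%, against 86.9% of all circRNAs tested. Nucleus against cytoplasm and ribosome against cytosol share no library, though they share 1 fit. Of the 6 higher in nucleus, 4 were also higher in ribosome: RAB3IP, DENND1A, STX17 and DENND5B at 31495810 to 31499671. They were 66.7% of those higher in nucleus and 44.4% of those higher in ribosome, against 47.2% and 26.5% over all circRNAs tested, a difference that was not tested. The DENND5B circRNA had passed the filter on low counts only through nucleus replicate 2 and ribosome replicate 2. STX17 had passed it only through nucleus replicate 1 and ribosome replicate 2. The filter thus fixed part of this overlap in advance, and no conclusion is drawn from it. SNX11 was higher in nucleus and lower in ribosome, and RAB6A at 73707420 to 73718890 was lower in nucleus and higher in ribosome.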

How the data were processed

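In the tables that the authors deposited, each circRNA has a whole-number count of junction reads per library from each of 2 callers, headed Ciri and CIRC in the files, with RPTM values and the authors' average over callers. The build is hg38 per the submitters' processing notes. Versions of the aligner and callers are not given in the sources used here, and what the implied library totals count is not stated. Mitochondrial samples are not analysed here.

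A circRNA was matched between tables by chromosome, start and end. Its reads in a library were averaged over the callers that list it and rounded, and unlisted circRNAs entered as 0. Host genes came from RefSeq (GRCh38.p14), by position only, so a host may lie on the opposite strand. The strand of the host gene came from a list of gene promoters, which gave it for 269 of the 331 members. No strand of a circRNA was compared with it. Of the members, 3 also lay in another coding gene and 10 in a non-coding one. The members and gene lists were chosen with earlier results of these data known.

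Counts of the 4679 circRNAs with entries by both callers in a table were filtered (filterByExpr, minimum count 10) and fitted with edgeR 4.0.16 in R 4.3.3 over all 12 libraries, with TMM factors of 1.93 and 2.25 in exosomes and 0.769 to 0.926 elsewhere. SE was |log2 fold change| over the root of the quasi-likelihood F. CircRNAs were compared within hosts with edgeR's diffSpliceDGE. The fits were tested on simulated data. Alternatives used other scales, filters, callers, tested sets and DESeq2 1.42.0, and left out each library. The fit with unlisted circRNAs at 1 read and total reads as the scale, the within-host test and the shares without RAB37 or VAPA were added after the data were seen. Named were the 12 members with the highest mean level, up to 6 per comparison and direction listed in both tables and up to 3 unlisted in 1, the top member of each family, the 5 hosts with most members and the 3 with most exosomal reads. VAPA at 9931810 to 9950568, FCHO2 at 72989427 to 72990864, COG3, RAB10 and the host-level tests were added after their values were seen.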

Additional observations from a re-analysis of the deposited data

Results flagged for a closer look

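Some trafficking entries with many reads were outside the tested set because only 1 caller had found them in each table, and they were not compared between fractions. The RAB37 entry (chromosome 17, 74732509 to 74732835) had a mean of 68.0 reads in exosomes, from 22 and 114, and no other table listed it. SNX5 at chromosome 20, 17956933 to 17961326, had a mean of 23.0 reads in cytoplasm, from 27 and 19, and 17.0 in cells, from 14 and 20. STXBP4, a syntaxin-binding protein, had a circRNA at chromosome 17, 55031168 to 55047154, with a mean of 13.0 reads in cytosol, from 14 and 12, and 13.0 in cells, from 13 and 13.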

How the results depend on the processing

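Counts of trafficking circRNAs called, in either direction, were 19 of 41 between nucleus and cytoplasm, 21 between ribosome and cytosol and 24 between exosome and cell. For nucleus and cytoplasm they were 32 with implied library totals, 5 with unlisted circRNAs at 1 read, 7 with that and total circRNA reads together, 3 with DESeq2, 4 with circRNAs listed in both tables only, and 7 with the 4 libraries of the pair only. The last 2 of these settings tested 18 and 19 trafficking circRNAs and not 41. For ribosome and cytosol the counts were 68 with no filter, 53 with at least 5 reads in 2 libraries, 13 with DESeq2 and 11 with circRNAs listed in both tables. The trafficking circRNAs tested were 161 with no filter, 86 with at least 5 reads and 28 with those listed in both tables. These counts are therefore not of the same 41. With no filter 17 of the 161 were higher and 51 lower, against 581 and 1251 of all 4679 circRNAs tested. For exosome and cell the counts were 15 with RLE factors, 6 with total circRNA reads, 38 with implied library totals, 4 with unlisted circRNAs at 1 read, 4 with that and total circRNA reads, 3 with DESeq2, 2 with circRNAs listed in both tables and 3 with the 4 libraries. Here the last 2 settings tested 7 and 8 trafficking circRNAs. Fits that left out 1 library tested 40 to 56 of them. Leaving out 1 library gave 5 to 19, 20 to 25 and 1 to 21 in these comparisons, with 5 without nucleus replicate 1, 10 without nucleus replicate 2, and 1 and 7 without exosome replicate 1 and 2. With the replicate block the counts were 18, 21 and 23. Deviations from the fraction mean in same-numbered libraries of a pair correlated at 0.003, 0.1 and 0.021. At such low counts these values cannot tell whether the libraries were paired. DESeq2 gave no adjusted p for 24, 0 and 29 of the 41 members. Of 1555 values of named fold changes under alternatives, 1243 kept direction and side of the threshold, 204 no longer passed, 96 newly passed and 12 reversed. These values include comparisons that were not called, which keep their side by not passing. Of the 55 named calls, only 11 were neither lost nor reversed in any alternative that tested them. Reversed with implied library totals were EPS15 at -0.38 and SH3GLB1 at -0.17 in exosome against cell, and VAMP3 at -2.00, RAB3IP at -0.16, RABGGTA at -1.67, VPS13C at -1.52 and TBC1D22A at -0.037 in nucleus against cytoplasm. With the Ciri caller alone VPS13C was at -5.95, and with the CIRC caller alone TBC1D14 (6923373 to 6967424) was at -4.35 in ribosome against cytosol. VAPA was at 0.25 with total circRNA reads and FCHO2 (73058433 to 73077493) at 0.13 with those and unlisted circRNAs at 1 read, both in exosome against cell, and RABGGTA in ribosome against cytosol ran from -0.19 without ribosome replicate 1 to 1.33 without cytosol replicate 1. The causes were not tested.

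The share of circRNA reads was 3.31% in nucleus, 3.42% in cytoplasm, 3.49% in ribosome, 4.23% in cytosol and 3.38% in cells with the CIRC caller alone. With the Ciri caller alone it was 2.11% in cytoplasm, 2.21% in ribosome, 2.42% in cytosol and 2.01% in cells. Among circRNAs found by both callers it was 3.07% in nucleus, 3.18% in cytoplasm, 3.46% in ribosome, 3.93% in cytosol and 3.23% in cells. Without the most abundant VAPA circRNA it was 2.05% in nucleus, 2.12% in cytoplasm, 2.27% in ribosome, 2.27% in cytosol and 2.05% in cells. Low read counts in nucleus and exosomes limit what could be detected there.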
